A study of Mus musculus with 30 samples.

Results

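The neuronal cytoskeleton and progenitor markers described here are 10 genes, chosen by symbol from the 56941 genes counted in each library: Eno2, Map2, Nefl, Nefm, Stmn2, Tubb3, Gap43, Nes, Vim and Tafa1. They were followed in mHypoA-2/12, an adult mouse hypothalamic cell line immortalized with a retroviral vector carrying the SV40 large T antigen. Cells received DMSO vehicle or cannabidiol (CBD, a phytocannabinoid of hemp) at 0.325, 0.75, 1.5 or 3 µM, and were harvested at 6 h or 24 h. Each of the 10 combinations of dose and time had 3 libraries, and all 30 libraries came from the same line. Nothing in the labels says that the 3 libraries of a group were separate cultures, so p-values measure only the spread between these libraries, which may be technical.

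As background, the cytoskeleton of a neuron is built from microtubules, actin and intermediate filaments, and its composition changes as a neural progenitor becomes a neuron. Progenitors assemble their filaments from nestin (Nes) and vimentin (Vim), and vimentin is also the main filament protein of fibroblasts and other mesenchymal cells. Neurons replace them with neurofilaments, whose light and medium subunits are Nefl and Nefm. Class III β-tubulin (Tubb3) and the dendritic microtubule-associated protein Map2 are classical neuronal markers. Stathmin 2 (Stmn2) destabilizes microtubules in growing axons, and Gap43 is a phosphoprotein of the growth cone membrane. Eno2 is the neuronal isoform of the glycolytic enzyme enolase. Tafa1 is a secreted chemokine-like protein found mainly in brain.

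Libraries held 1839621 to 4420675 reads on genes, with a median of 2641725. The labelled cell type was checked against defining markers. Of 12 neuronal markers, 2 (the vesicular GABA transporter Slc32a1 and the GABA-synthesizing enzyme Gad1) had no read in any library, which allows a level of up to 0.0356 reads per 1000000 (CPM, reads of the gene per 1000000 reads on genes, on TMM-scaled library sizes) over the pooled libraries (3 reads, counting error only). A total of 9 of the 12 lay below 1 CPM on average, including the neuronal nuclear protein Rbfox3 and the synaptic protein Snap25, and the summed level of the 12 ranged from 12.7 to 24.6 CPM. All 10 mesenchymal markers were above 1 CPM, with a summed level of 9083 to 12296 CPM led by S100a4 and the smooth muscle actin Acta2. The summed levels of the other lists were 16.7 to 50.4 CPM for astrocyte, 9.11 to 37.1 for oligodendrocyte, 14.5 to 54.2 for microglia, 0 to 2.94 for endothelium and 3.95 to 25.1 for epithelium markers. The data thus go against the neuronal label for most defining markers, and the cells are called here by the name of the line.

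Promoter sequences are shown for Tafa1 and Nes, the genes with the smallest p in the comparison of CBD with vehicle at 6 h. Each is the 250 bases before the RefSeq transcription start on GRCm38.p6, with motif letters in capitals.
Tafa1, chr6:96112904-96113153, plus strand: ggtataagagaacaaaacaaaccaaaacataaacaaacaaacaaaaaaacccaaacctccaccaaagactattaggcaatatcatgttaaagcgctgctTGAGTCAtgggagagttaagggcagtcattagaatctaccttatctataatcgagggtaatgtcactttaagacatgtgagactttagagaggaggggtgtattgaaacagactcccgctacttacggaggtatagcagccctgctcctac
Nes, chr3:87970843-87971092, plus strand: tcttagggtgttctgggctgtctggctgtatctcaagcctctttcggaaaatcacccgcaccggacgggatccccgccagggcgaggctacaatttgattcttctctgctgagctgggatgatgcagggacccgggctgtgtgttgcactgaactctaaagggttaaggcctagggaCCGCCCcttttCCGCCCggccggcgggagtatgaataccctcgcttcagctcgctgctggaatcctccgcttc
The capitals mark an AP-1 site (TGANTCA) in Tafa1, 151 to 145 bases before the start, and 2 GC boxes (GGGCGG, here on the minus strand) in Nes, 73 to 68 and 62 to 57 bases before it. The motifs did not overlap.

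Motifs were searched on both strands of the same 250-base window of 32851 RefSeq promoters, of which 6.75% held the AP-1 site and 32.7% a GC box. The other 6 of the 8 motifs searched were the TATA box (TATAAA, in 12.4% of windows), the CCAAT box (CCAAT, 33.8%), the cyclic AMP response element (TGACGTCA, 1.55%), an E-box (CACGTG, 6.02%), a SOX core (ACAAAG, 16.5%) and an RE1 core (TTCAGCACC, 0.301%). A promoter entry was matched for 6 of the 10 genes, the other 4 of them being Eno2, Map2, Tubb3 and Vim. The Vim window held a TATA box 32 to 27 bases before the start and 2 CCAAT boxes, and the Map2 window held 5 GC boxes. Base composition differed widely, from 40.8% G and C in the Tafa1 window to 81.2% in the Map2 window, against a median of 52.4% over all windows. These matches describe the letters of the windows and do not show that a factor binds there.

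All 10 genes were detected in every library and passed the filter on low counts in each fit, but their levels spanned more than 2 orders of magnitude. Because the 3′ kit makes about 1 fragment per transcript, CPM was compared between genes without dividing by length. Vim was by far the most abundant, at a mean of 2198 CPM over the 30 libraries (range 1790 to 3436), which placed it at rank 31 of the 27561 genes detected. Nes followed at 125 CPM (range 63.6 to 191, rank 1566). The range of Vim was the only one that did not overlap that of the next gene in the order.

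**Figure D1:**
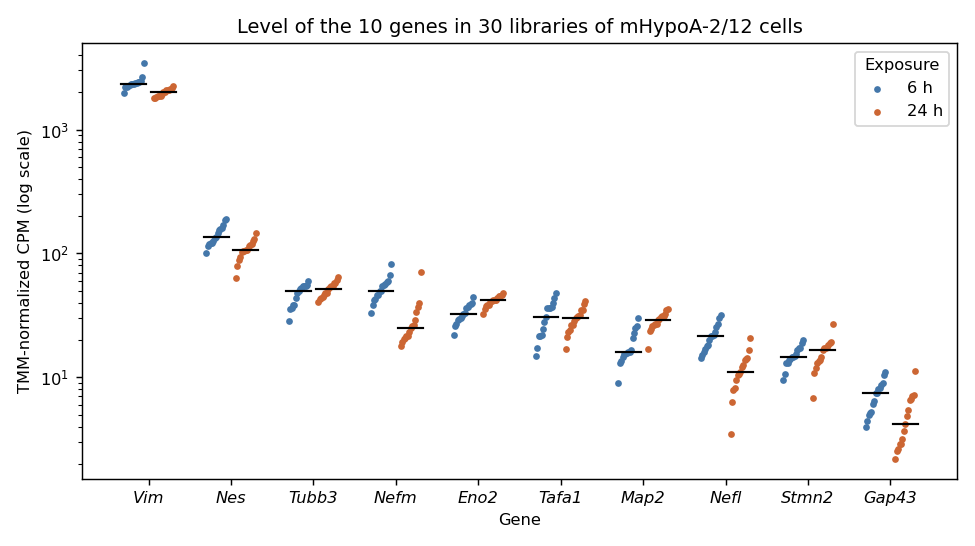
TMM-normalized CPM (log scale) of the 10 genes, with 1 point per library, 15 libraries at 6 h (blue) and 15 at 24 h (orange), and a black line at each median. Vim lies above 1790 CPM in all libraries, Gap43 between 2.20 and 11.3 CPM, and the genes between Nes and Gap43 overlap their neighbours.

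The neuronal markers formed a continuous series below the 2 progenitor filaments. Mean levels were 49.1 CPM for Tubb3 (range 28.4 to 64.6), 40.5 for Nefm (17.98 to 82.3), 37.2 for Eno2 (21.8 to 47.6) and 29.96 for Tafa1 (14.9 to 48.3). Map2 followed at 23.2 CPM (9.02 to 35.5), then Nefl at 16.4 (3.52 to 31.8), Stmn2 at 15.3 (6.84 to 26.8) and Gap43 at 6.00 (2.20 to 11.3). The ranges of neighbours in this series overlapped over the 30 libraries. Neighbours were not compared within libraries, so overlap does not show that their levels were equal. The depth behind the lowest of them was small, with 488 Gap43 reads in all and between 5 and 34 in a library.

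Relatives of these genes were present to very different degrees. The other neuronal intermediate filaments were nearly absent: peripherin (Prph) averaged 1.15 CPM, α-internexin (Ina) 0.422 and the heavy neurofilament subunit Nefh 0.0741, and 0 of the 3 passed the filter. The microtubule regulator doublecortin (Dcx), a marker of migrating young neurons, had no read, while the α-tubulin Tuba1a stood at 713 CPM. Of 4 other TAFA family genes, 0 passed the filter, with 18 reads at most over all libraries. The list of other filament genes and cytolinkers set beside Nes and Vim was led by the nuclear filament protein lamin A/C (Lmna, 873 CPM). The cytolinker plectin (Plec) stood at 844 CPM, whereas the astrocyte filament protein Gfap had 2 reads in all. The other enolases Eno1 (69.3 CPM) and Eno3 (87.0 CPM) were both above Eno2.

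At 6 h, the question was whether CBD at any dose changed these genes relative to vehicle. Over the mean of the 4 doses, Tafa1 was the 1 gene of the 10 called by edgeR, and 0.749% of all genes tested were called. Because the 10 genes were chosen with earlier results of these data known, their count cannot be tested against that share. Tafa1 stood at 17.1, 14.9 and 21.5 CPM in vehicle. It stood at 21.8, 44.0 and 48.3 CPM at 0.325 µM, 36.6, 36.4 and 36.1 CPM at 0.75 µM, 36.2, 30.5 and 39.5 CPM at 1.5 µM and 21.6, 24.8 and 27.8 CPM at 3 µM. All 12 CBD libraries lay above the 3 vehicle libraries, although the lowest CBD library (21.6 CPM) was barely above the highest vehicle library (21.5 CPM). Such a separation was found for 1.45% of all genes tested. The log2 fold change was 0.86 (SE 0.21, edgeR FDR 0.0705).

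The Tafa1 call was close to the threshold. Leaving out 1 library at a time gave FDRs from 0.0116 to 0.294 with log2 fold changes of 0.75 to 1.05. The call was lost without vehicle replicate 1 (FDR 0.190) or 2 (FDR 0.294), without 3 µM replicate 2 or 3 (FDR 0.108 and 0.118), without 1.5 µM replicate 3 (FDR 0.103) and without 0.75 µM replicate 1 or 2 (FDR 0.102 and 0.104).

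Nes, the progenitor filament gene, was the next in order. Vehicle libraries at 6 h held 121, 116 and 101 CPM. CBD libraries held 156, 157 and 191 CPM at 0.325 µM, 118, 125 and 122 CPM at 0.75 µM, 185, 162 and 169 CPM at 1.5 µM, and 147, 132 and 135 CPM at 3 µM. The groups at 0.325, 1.5 and 3 µM lay wholly above vehicle, and the group at 0.75 µM overlapped it. The mean of the doses against vehicle was 0.40 (log2, SE 0.11) and did not pass in edgeR (FDR 0.126), but did with DESeq2 (FDR 0.0529), which called 1.1% of all genes.

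The other 8 genes were not called at 6 h over the mean of the doses. The 2 neurofilament subunits had negative log2 values, −0.43 for Nefl (SE 0.21, FDR 0.479) and −0.36 for Nefm (SE 0.17, FDR 0.486), and Map2 a positive one (0.42, SE 0.25, FDR 0.603). Vim had −0.25 (SE 0.11, FDR 0.401), a value that rested on vehicle replicate 3, whose 3436 CPM stood above the 1961 to 2673 CPM of the other 14 libraries at 6 h. Without that library the value was −0.05 for Vim (FDR 0.877), while Nefm then passed at −0.60 (FDR 0.0857). Vehicle replicate 3 also stood apart over all genes. The chi-square per gene, a measure of disagreement relative to counting error, was 10.7 and 9.69 against replicates 1 and 2, and 2.15 between those. It had 3574833 reads on genes, against 1839621 and 1919498. Every comparison with vehicle at 6 h used it, as did the vehicle comparison between times. Tubb3, Eno2, Stmn2 and Gap43 lay between −0.18 and 0.02, with standard errors of 0.17 to 0.34.

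**Figure D2:**
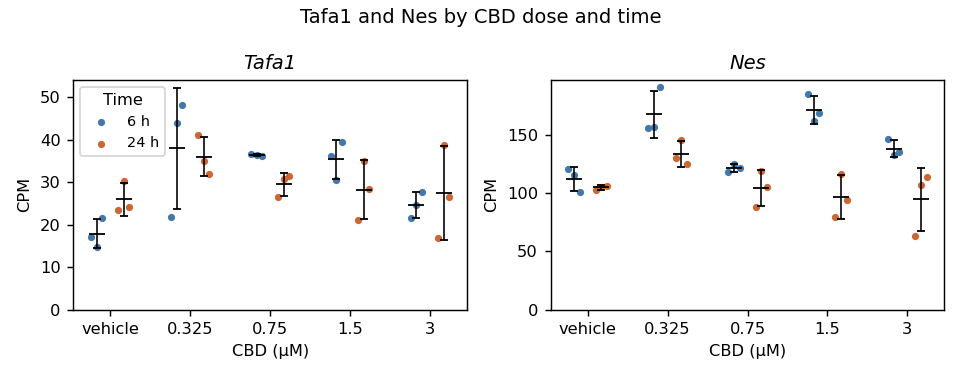
Tafa1 and Nes in CPM at each CBD dose, with 3 libraries per group as points (6 h blue, 24 h orange), the mean as a bar and ± 1 SD as error bars. At 6 h all 12 CBD libraries lie above the 3 vehicle libraries for Tafa1, and for Nes the groups at 0.325, 1.5 and 3 µM do.

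Dose by dose at 6 h, edgeR called 0 of the 40 combinations of gene and dose, with 9 at an unadjusted p below 0.05, and DESeq2 called 5. Of all genes tested, edgeR called 0.2%, 0.0749%, 0.0999% and 0.05% from the lowest to the highest dose, and DESeq2 called 0.591%, 0.4%, 0.466% and 0.4%. The 5 combinations were Nes at 0.325 and 1.5 µM and Tafa1 at 0.325, 0.75 and 1.5 µM. In edgeR, Nes differed by 0.57 (SE 0.14, FDR 0.113) at 0.325 µM and 0.61 (SE 0.14, FDR 0.1101) at 1.5 µM. Tafa1 differed by 1.05 (SE 0.25, FDR 0.113), 0.997 (SE 0.25, FDR 0.165) and 0.96 (SE 0.25, FDR 0.200) at the 3 lower doses, and by 0.44 (SE 0.26, FDR 0.784) at 3 µM.

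The dose and vehicle groups at 6 h did not overlap in 10 of the 40 combinations, against 10.6% to 12.8% of all genes tested at a dose. All 4 doses were set against the same vehicle libraries, so the combinations are not independent. Most of those without overlap were Tafa1, at all 4 doses, and Nes, at 0.325, 1.5 and 3 µM. The others were Map2 at 0.75 µM, which was higher in the CBD libraries, and Eno2 and Nefl at 3 µM, which were lower. Tests among the 4 doses at 6 h called 0 of the 10 genes (1 at an unadjusted p below 0.05, 0 with DESeq2), as did the trend over log2 dose (1 and 0). Both called 0.0% of all genes.

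At 24 h, edgeR called 0 of the 10 genes for the mean of the doses against vehicle, with 0 at an unadjusted p below 0.05 and 0 with DESeq2, and 0.107% of all genes tested were called. Tafa1 in vehicle stood at 23.4, 30.4 and 24.1 CPM, and the 12 CBD libraries ranged from 16.9 to 41.1 CPM with a median of 31.1. The groups overlapped, and the log2 fold change was 0.21 (SE 0.18, FDR 0.913). Nes stood at 103, 106 and 106 CPM in vehicle and at 63.6 to 146 CPM (median 110) in the CBD libraries, a log2 fold change of 0.01 (SE 0.13, FDR 0.997). The other 8 genes lay between −0.50 for Gap43 (SE 0.36) and 0.12 for Nefl (SE 0.28).

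Whether the CBD effect itself differed between 24 h and 6 h was tested as an interaction, which called 0 of the 10 genes (2 at an unadjusted p below 0.05, 0 with DESeq2) and 0.235% of all genes. These 2 were Tafa1, with a difference of −0.64 (SE 0.29, FDR 0.733), and Nes, with −0.39 (SE 0.18, FDR 0.735).

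Each dose at 24 h was also compared with vehicle, and 0 of 40 combinations were called (5 at an unadjusted p below 0.05, 0 with DESeq2). Of all genes tested, 0.066%, 0.0825%, 0.0413% and 0.00825% were called from the lowest to the highest dose. The groups did not overlap in 9 of the 40 combinations, against 10.3% to 13.3% of all genes at 0.325, 1.5 and 3 µM and 15% at 0.75 µM. These combinations also share their vehicle libraries and are not independent. At 0.325 µM, Nes (130, 146 and 125 CPM) and Tafa1 (41.1, 35.1 and 31.99 CPM) lay above the 3 vehicle libraries, by 0.34 (SE 0.16, FDR 0.574) and 0.47 (SE 0.22, FDR 0.572). Eno2 lay below vehicle at 0.325 µM and above it at 0.75 and 3 µM. Vim at 0.75 µM, Nefm and Gap43 at 1.5 µM and Stmn2 at 3 µM lay below vehicle, Stmn2 by −0.77 (SE 0.29, FDR 0.507).

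Among the 4 doses at 24 h, edgeR called 0 of the 10 genes (4 at an unadjusted p below 0.05, 1 with DESeq2), against 1.93% of all genes with edgeR and 4.34% with DESeq2. The gene that DESeq2 called was Nefm, the medium neurofilament subunit (FDR 0.0525, edgeR FDR 0.131). Nefm stood at 21.7, 19.1 and 33.4 CPM at 0.325 µM, 26.4, 29.1 and 17.98 CPM at 0.75 µM, 20.2, 20.6 and 23.2 CPM at 1.5 µM and 70.4, 21.7 and 40.1 CPM at 3 µM, and at 25.04, 36.6 and 25.8 CPM in vehicle. The 3 lower doses overlapped one another, and the spread at 3 µM was wide.

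The trend over log2 dose at 24 h called 0 of the 10 genes (2 at an unadjusted p below 0.05, 1 with DESeq2), against 3.13% of all genes with edgeR and 4.18% with DESeq2. Per doubling of dose, Nes changed by −0.15 (log2, SE 0.05, FDR 0.121, DESeq2 FDR 0.0968) and Nefm by 0.22 (SE 0.09, FDR 0.187). Nes group means were 134, 104, 96.7 and 94.8 CPM from 0.325 to 3 µM, with SDs of 10.9, 15.5, 18.7 and 27.3 (n = 3 each).

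One library weighed on these dose patterns. Replicate 1 of 3 µM at 24 h had the highest Nefm (70.4 CPM, against 17.98 to 40.1 in the other 14 libraries at 24 h), the highest Nefl (20.9, against 3.52 to 16.7) and the highest Vim of that time. It had the lowest Nes (63.6 CPM, against 79.6 to 146), Map2 (16.9, against 23.6 to 35.5), Stmn2 (6.84, against 10.9 to 26.8) and Tafa1 (16.9, against 21.1 to 41.1). Without it the trend was 0.07 for Nefm (FDR 0.788) and −0.09 for Nes (FDR 0.454). Without replicate 2 of that group instead, Nefm at 3 µM against vehicle was 0.94 (FDR 0.0637) and the trend was 0.31 for Nefm (FDR 0.0114) and −0.18 for Nes (FDR 0.0403). Without replicate 3 of 0.325 µM the trend also passed, at 0.30 for Nefm (FDR 0.0746) and −0.16 for Nes (FDR 0.0910). The fraction of reads assigned to no gene also differed by dose at 24 h, at 21.4% ± 0.714 (SD, n = 3) in vehicle and 21.4% ± 0.487 at 3 µM, against group means of 19.4% to 19.7% at the 3 lower doses. With that share as a covariate the trend was 0.33 for Nefm (FDR 0.456) and −0.18 for Nes (FDR 0.515).

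The smallest FDRs of these genes were between the time points, where many of all genes tested also differed. In vehicle, 4 of the 10 genes were called between 24 h and 6 h, against 26.7% of all genes tested. With 10 genes, this count is not far from that share, so it is not a result about these genes as a set. Map2 rose, and Nefl, Nefm and Vim fell. The time points were harvested separately, so exposure time and harvest cannot be told apart, nor, in bulk libraries, can fewer cells of a type and less RNA per cell.

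Map2, which binds and stabilizes dendritic microtubules, rose from 15.5, 9.02 and 16.6 CPM at 6 h to 31.5, 26.4 and 31.5 CPM at 24 h in vehicle. The 3 libraries at 24 h were all above those at 6 h, with a log2 fold change of 1.09 (SE 0.26, FDR 0.00283). Nefl fell from 21.6, 31.8 and 27.1 CPM to 7.88, 12.5 and 11.1 CPM, a log2 change of −1.37 (SE 0.31, FDR 0.00171). Nefm fell from 66.9, 82.3 and 42.5 CPM to 25.04, 36.6 and 25.8 CPM, a log2 change of −1.12 (SE 0.27, FDR 0.00352). Both neurofilament subunits thus separated the time points without overlap. Nefl lies within the span of Nefm on the opposite strand (chromosome 14, 68083863 to 68089095 inside 68082590 to 68124846, GRCm38), so their counts are uncertain to the extent that the counting ignored strand. Map2 likewise overlaps the antisense gene Gm10558, which had 177 reads against 2006 for Map2.

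Vim fell less, from 2485, 2332 and 3436 CPM to 2137, 2011 and 2089 CPM in vehicle, a log2 change of −0.41 (SE 0.12, FDR 0.0144). The groups did not overlap, but without vehicle replicate 3 at 6 h the change was −0.20 (FDR 0.264), and with the share of reads assigned to no gene in the model it was −0.24 (FDR 0.122). That share was 20.04% ± 1.89 in vehicle at 6 h and 21.4% ± 0.714 at 24 h (SD, n = 3 each). Groups in vehicle did not overlap for 5 of the 10 genes, against 31.8% of all genes tested. The fifth was Tafa1, higher at 24 h by 0.51 (SE 0.26) without passing (FDR 0.167).

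**Figure D3:**
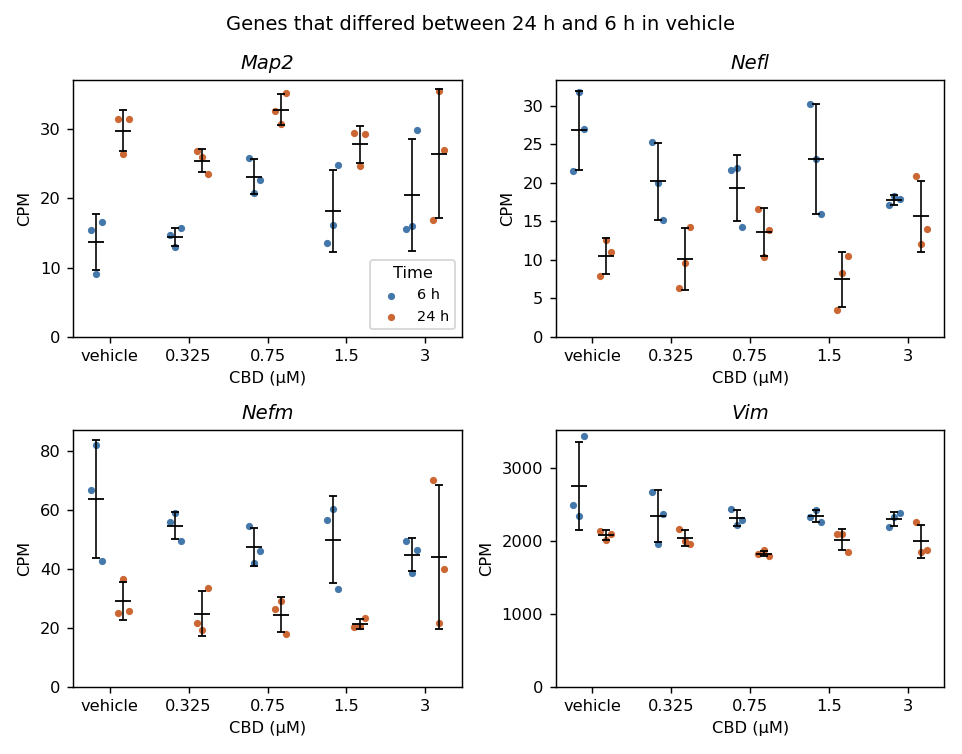
Map2, Nefl, Nefm and Vim in CPM in vehicle and at each CBD dose, with 3 libraries per group as points (6 h blue, 24 h orange), the mean as a bar and ± 1 SD as error bars. In vehicle Map2 is higher at 24 h than at 6 h and the other 3 genes are lower, without overlap, and vehicle replicate 3 at 6 h stands out for Vim at 3436 CPM.

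In the CBD libraries, 7 of the 10 genes were called between 24 h and 6 h, against 53.6% of all genes tested, with 12 libraries at each time. This count too is not far from the share over all genes. The same directions were found for Map2 (0.58, SE 0.13, FDR 0.000266), Nefl (−0.82, SE 0.16, FDR 5.82e-05), Nefm (−0.84, SE 0.14, FDR 5.91e-06) and Vim (−0.24, SE 0.06, FDR 0.00122). Nefl ranged from 14.3 to 30.3 CPM (median 19.1) at 6 h and from 3.52 to 20.9 CPM (median 11.3) at 24 h. Nefm ranged from 33.2 to 60.2 CPM (median 49.5) and from 17.98 to 70.4 CPM (median 22.5). Map2 ranged from 12.95 to 29.9 CPM (median 16.1) and from 16.9 to 35.5 CPM (median 28.2). The ranges at the 2 times overlapped for all 10 genes, while 3.1% of all genes tested had ranges that did not.

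A further 3 genes were called in the CBD libraries and not in vehicle, a contrast that the interaction test did not call for any of them. Nes fell by 0.48 on the log2 scale (SE 0.08, FDR 3.54e-06), from a median of 151 CPM (range 118 to 191) to 110 CPM (63.6 to 146). Eno2 rose by 0.37 (SE 0.09, FDR 0.00143), from a median of 30.7 CPM (21.8 to 44.8) to 42.3 CPM (32.7 to 47.6). Gap43 fell by 0.68 on the log2 scale (SE 0.23, FDR 0.0135), from a median of 6.97 CPM (3.98 to 10.4) to 3.45 CPM (2.20 to 11.3), on few reads per library. Stmn2 (−0.01, SE 0.14), Tubb3 (0.18, SE 0.10, FDR 0.132) and Tafa1 (−0.14, SE 0.12, FDR 0.375) did not pass. In vehicle, the corresponding values were −0.10 (SE 0.16) for Nes, 0.15 (SE 0.19) for Eno2 and −0.32 (SE 0.44) for Gap43.

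**Figure D4:**
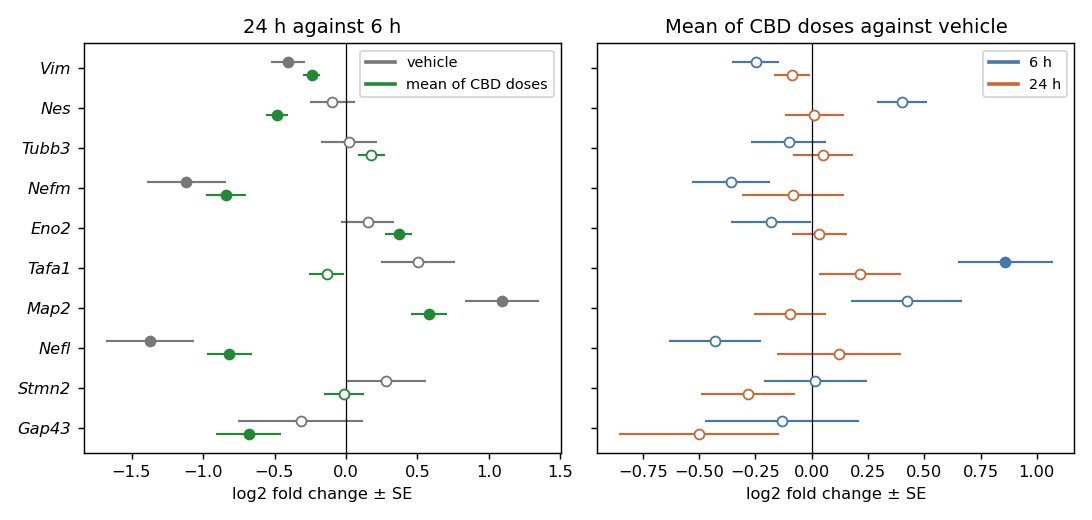
Log2 fold changes ± SE of the 10 genes between 24 h and 6 h (left; vehicle grey, mean of the CBD doses green) and for the mean of the CBD doses against vehicle (right; 6 h blue, 24 h orange), with filled points for edgeR FDR below 0.1. In the left panel 4 genes are filled for vehicle and 7 for CBD, and in the right panel Tafa1 at 6 h is filled alone.

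Related genes were followed over the same time contrasts, in which 26.7% of all genes tested were called in vehicle and 53.6% in the CBD libraries. Of 17 neuronal microtubule proteins, 10 were tested and 3 rose in vehicle, namely Tuba1a (0.68, FDR 0.000768), the β-tubulin Tubb2b (0.96, FDR 0.00859) and the doublecortin-like kinase Dclk1 (0.61, FDR 0.0198). This count of 3 of 10 is near the share over all genes, and the median log2 change of the list in vehicle was 0.19, beside −0.03 over all genes. In the CBD libraries the same 3 rose, and 2 microtubule-associated proteins, Map1a (−0.28, FDR 0.00625) and Map6 (−0.20, FDR 0.0728), fell, so that 5 of 10 were called, near the share over all genes. The median over the list was 0.03, beside −0.01 over all genes. Of 3 growth cone proteins related to Gap43, Marcks rose in vehicle (0.42, FDR 0.0403), and in the CBD libraries Marcks (0.27, FDR 0.00272) and Marcksl1 (0.45, FDR 0.00103) rose while Basp1 fell (−0.43, FDR 1.84e-07). Of the 2 other enolases, Eno3 fell in vehicle (−0.71, FDR 0.0052) and in the CBD libraries (−0.60, FDR 9.59e-07), and Eno1 fell in the CBD libraries (−0.26, FDR 0.00461).

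Of 13 neural progenitor genes listed, 6 were tested and 7 were not. In vehicle 4 fell and 1 rose, where 26.7% of all genes were called, with a median of −0.70 beside −0.03 over all genes. Those that fell included the Notch target Hes1 (−1.39, FDR 0.000109), the RNA-binding protein Msi2 (−0.57, FDR 0.0139) and the transcription factor Sox9 (−0.69, FDR 0.0300), the most abundant of the list at 181 CPM, as well as Sox2 (−1.03, FDR 0.0739). The glutamate transporter Slc1a3 rose (1.72, FDR 0.0569), on only 295 reads over all libraries. In the CBD libraries 3 fell, namely Sox2 (−1.22, FDR 1.48e-05), Msi2 (−0.39, FDR 0.000285) and Pax6 (−1.07, FDR 0.00128), with a median of −0.30 beside −0.01. This count of 3 of 6 is near the 53.6% called over all genes, and Hes1 (−0.21, FDR 0.183) and Sox9 (0.06, FDR 0.691) were not called there. At 6 h, 1 of the 6 was called for the mean of the doses against vehicle, where 0.749% of all genes were called. It was Hes1, which was lower (−1.18, SE 0.19, FDR 0.00367). This value and the fall of Hes1 with time in vehicle share the vehicle libraries at 6 h, so they are not independent. Of 5 other filament genes and cytolinkers tested, in the CBD libraries Plec fell (−0.16, FDR 0.0332) and desmin (Des) rose (0.66, FDR 0.0803), and 0 were called in vehicle, below the shares called over all genes in both cases.

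Markers of several cell types differed between the times, beside the 26.7% of all genes called in vehicle and the 53.6% called in the CBD libraries. Of 10 mesenchymal markers, 4 rose and 2 fell in vehicle, and 4 rose and 4 fell in the CBD libraries. Their summed level was 9083 to 11710 CPM in vehicle at 6 h and 9951 to 10116 CPM at 24 h. The 12 neuronal markers, of which 2 could be tested and 0 were called, summed to 15.9 to 19.3 CPM and 15.1 to 21.1 CPM.

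Of 7 oligodendrocyte markers only Cnp, a phosphodiesterase of myelin, could be tested, and it rose in vehicle (1.005, FDR 0.00512) and in the CBD libraries (1.08, FDR 1.01e-08), while Sox10, Olig1 and Olig2 had no read. The list summed to 9.11 to 20.5 CPM in vehicle at 6 h and 23.1 to 33.2 CPM at 24 h, without overlap. Of 6 astrocyte markers 3 were tested. Slc1a2 fell in vehicle (−1.21, FDR 0.0082) and in the CBD libraries (−0.71, FDR 0.000925), Slc1a3 rose in vehicle (1.72, FDR 0.0569), and S100b rose in the CBD libraries (1.988, FDR 4.71e-06), with a summed level in vehicle of 21.3 to 50.4 CPM at 6 h and 20.9 to 31.3 CPM at 24 h. Reads were few for Slc1a3 (295 over all libraries) and S100b (366, with 1 library at 0). Of 6 microglia markers 2 were tested, and Cx3cr1 fell in vehicle (−1.04, FDR 0.0476) and in the CBD libraries (−0.64, FDR 0.00729), with sums in vehicle of 22.9 to 54.2 CPM and 21.1 to 25.5 CPM. Of 4 epithelial markers 2 were tested, and Krt18 fell in the CBD libraries (−0.72, FDR 0.00133), with sums in vehicle of 11.3 to 22.7 CPM and 8.04 to 11.2 CPM. The 4 endothelial markers, of which 0 could be tested, summed to 0.553 to 2.12 CPM and 0 to 0.464 CPM. The part of these markers in the changes with time was not tested.

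For each gene called in any comparison except Map2, the genes whose log2 CPM ran most alike over the 30 libraries were listed. These values are descriptions, since all libraries share the division into 2 times, and they carry no test. Nefl was most like Ablim3 (r = 0.91), Ppp2r2a and Nme1, and Nefm most like Lgals3 (r = 0.92), Rps19-ps4 and Eif5. Eno2 was most like Sardh (r = 0.83), Pmm1 and Lrrc45. Vim was most like Hnrnpa2b1 (r = 0.87), Emp1 and Pfn1, and Nes most like Timp1 (r = 0.75), Flna and Thbs1. Tafa1 was most like Mmp3 (r = 0.75), Sema5a and Ndufaf2, and Gap43 most like Phlda3 (r = 0.73), Gcn1 and Kpna3.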

How the data were processed

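Gene expression was measured by QuantSeq 3′ mRNA-Seq (FWD kit) in 30 libraries of mHypoA-2/12 cells, in 10 groups of 3. The authors deposited raw counts of reads per gene, 1 table per library. Per the methods and the submitters' processing notes, reads were checked with FastQC 0.11.9, trimmed with Flexbar, aligned to GRCm39 with STAR 2.7.5c and counted with HTSeq 1.99.2 on an Ensembl annotation. The strand setting of the counting was not given in the sources used here. Of the reads on genes, outside genes or ambiguous, 19.97% lay outside genes and 4.92% were ambiguous. Alignments listed as not unique were not part of this total. All entries other than reads on genes were left out of library sizes and tests.

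Groups were taken from the sample labels. Levels are counts scaled to 1000000 (CPM) on TMM-scaled library sizes. Tests were edgeR 4.0.16 quasi-likelihood F-tests (R 4.3.3, limma 3.58.1) after filterByExpr, fitted on all genes passing the filter: 12012 genes in the 15 libraries at 6 h, 12118 in the 15 at 24 h and 12790 in all 30, the last for comparisons between times. A gene was called at a false discovery rate (FDR, Benjamini-Hochberg across every gene in the fit) below 0.1. The standard error (SE) is the log2 fold change divided by the root of F. Alternatives were DESeq2 1.42.0, RLE scaling, 2 other filters, a covariate, other sample sets and leaving out each library. The scripts were tested on simulated counts. Symbols came from GENCODE M21 (GRCm38), which named 51948 of the 56941 identifiers.

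All 10 genes are named, with full statistics for those called in any comparison. For each called gene the 3 genes most like it by Pearson's r over the 30 libraries are named (those for Map2 are not reported here), and from each further list at most 4 genes, the most abundant and up to 3 called with the smallest p. Other list genes, such as those without reads, were named after their values were seen. The genes and the lists were chosen with earlier results of these data known. No sequencing batch is given in the labels.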

Additional observations from a re-analysis of the deposited data

Results flagged for a closer look

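Eno2 was singled out because its 3 libraries at 3 µM CBD lay on opposite sides of vehicle at the 2 times. At 6 h they held 30.2, 31.3 and 21.8 CPM against 37.1, 39.8 and 32.6 CPM in vehicle, a log2 fold change of −0.38 (SE 0.23, edgeR FDR 0.789). At 24 h they held 42.2, 43.4 and 47.6 CPM against 38.5, 40.9 and 41.5 CPM, a log2 fold change of 0.15 (SE 0.16, edgeR FDR 0.797). Neither value passed the threshold, and the difference between the times was not tested at this dose. Groups at 3 µM did not overlap vehicle for 12.8% of all genes tested at 6 h and 10.3% at 24 h. At 6 h the Eno2 groups at 0.325, 0.75 and 1.5 µM overlapped vehicle. At 24 h Eno2 also lay below vehicle at 0.325 µM and above it at 0.75 µM, without an order by dose. Over the mean of the 4 doses, the interaction was 0.22 for Eno2 (SE 0.21, edgeR FDR 0.928).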

How the results depend on the processing

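Between the times, 3 to 4 genes were called in vehicle and 7 to 8 in the CBD libraries when 1 library was left out at a time, and 3 to 4 and 5 to 8 over all alternatives run, the lowest CBD count being that with at least 10 counts in every library, where Nefl and Gap43 were not tested. In the main edgeR fit these 2 contrasts called 26.7% and 53.6% of all genes tested. The order of the 10 levels was the same under CPM without TMM and RLE scaling. The results for CBD depended on the settings. A setting can also change the share of all genes called, so a higher count is not by itself a result about these 10 genes. Per dose at 6 h, DESeq2 called 0.4% to 0.591% of all genes, against 0.05% to 0.2% with edgeR. Shares for alternatives other than DESeq2 are not reported here. For each dose against vehicle at 6 h, where edgeR called 0 of 40, the count was 5 in each of 3 alternatives (DESeq2, all genes kept whatever their counts, and the share of reads assigned to no gene as covariate), 3 with all 30 libraries in the fit, 1 with at least 10 counts in every library, and 0 to 5 without 1 library. For the mean of the doses at 6 h, where 1 gene was called, the count was 2 with DESeq2, 3 with the covariate, 2 with the 3 lower doses only and 0 to 2 without 1 library. At 24 h, leaving out 1 library gave 0 to 1 for each dose, 0 to 2 among doses and 0 to 3 for the trend. The test among doses at 24 h called 1 gene with DESeq2 and 2 with no filter, and the trend likewise 1 and 2. With the 3 lower doses only, the Nefm trend turned to −0.085 (SE 0.13, FDR 0.998). The mean of the doses at 24 h, the interaction, and the tests among doses and over dose at 6 h stayed at 0 calls under every alternative run. The cause of these differences was not tested. No paired analysis was possible because the labels number the libraries in one series across all groups, and the replicate numbers used here are names given in that order. Low depth limits Gap43 and Nefl most, with 5 and 8 reads in their lowest libraries.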

Other observations

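Relations between the 10 genes across libraries were computed for the 45 pairs at each time, 90 in all, over 15 libraries each. After Benjamini-Hochberg adjustment, 1 of the 90 passed 0.1: Nes and Tafa1 at 24 h, with Pearson's r = 0.82 (permutation p = 0.00024 of 100000 two-sided resamples, adjusted 0.0216) and Spearman's rho = 0.80 (permutation p = 0.00052, adjusted 0.0468). Without the 2 libraries farthest from the median Nes level, r was 0.69, and without replicate 1 of 3 µM at 24 h it was also 0.69. The 15 libraries include 5 dose groups, so the relation holds both differences between groups and within them. At 6 h the same pair had r = 0.55.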
